A study of Mus musculus with 8 samples.

Results

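The clustered histone genes encode the core histones H2A, H2B, H3 and H4, around which DNA is wound into nucleosomes, and the linker histone H1, which binds the DNA between them. They were read here in hearts of male mice fed standard chow: 4 wild-type hearts, numbered 2, 4, 5 and 6, and 4 hearts of Gpihbp1-/- mice, numbered 1, 2, 3 and 4. Gpihbp1 is the endothelial protein that carries lipoprotein lipase to the capillary lumen. Age and strain background are not stated in the labels. Members were found by name, as every gene whose symbol is H1, H2a, H2b, H3 or H4 followed by c or f and a number, which gave 63 of the 17190 genes listed: 9 for H1, 14 for H2A, 14 for H2B, 13 for H3 and 13 for H4. The family was chosen by the genotype difference of H3c14 and H3c15 in these same libraries, so the knockout and wild-type values of members are given as a description. Calls of the fit across all genes and intervals are quoted beside them, but nothing is concluded from these for the members. The labels name no litter, batch or collection day, so the spread given is that between these hearts only.

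Most clustered histone genes are replication-dependent: they are transcribed in S phase, and their mRNA ends in a stem-loop bound by Slbp in place of a poly(A) tail. A smaller set taken in by the name rule, among them H1f0 and H1f10, is expressed outside S phase and makes polyadenylated mRNA. H1f0 on chromosome 15 and H1f10 on chromosome 6 lie apart from the main groups of members, 50 on chromosome 13 and 7 on chromosome 3. The libraries were made from RNA captured with oligo(dT), which does not select for transcripts that lack a tail. An adult heart holds few dividing cells.

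Library totals ran from 9065561 to 13492971 estimated counts, and the histone family took 0.0232% to 0.0341% of them. The labels were checked with Gpihbp1, which had 833 to 1951 reads in the wild type and 0, 0, 1 and 0 in knockout 1, 2, 3 and 4. Cardiomyocyte markers summed to 37115 CPM or more in every library (CPM, library-size normalised counts with TMM scaling). Wild-type 2 and knockout 2 stood apart from the other 6 hearts: the 6 fibroblast markers summed to 7619 and 9062 CPM there against 840.5 to 1052 elsewhere, mostly through Col1a1, Col3a1 and Postn (Dcn was at 536 CPM in knockout 2, within the range of the other hearts), and 34 genes of S phase and mitosis to 828 and 881 CPM against 170.2 to 204. Wild-type 6 stood apart in other ways, with erythroid markers at 12283 CPM against 293 to 1517 and the atrial light chain gene Myl4 at 974 CPM against 1.83 to 2.45. Of the 5 atrial markers, Myl7 and Sln followed Myl4. Nppa was high in wild-type 2 (3132 CPM) and knockout 2 (4467 CPM) as well as in wild-type 6 (3262 CPM). Nr2f2 was not raised in wild-type 6 (9.42 CPM against 7.38 to 17.0).

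H3c14 (NCBI gene 15077) and H3c15 (NCBI gene 97114) are copies of an H3 gene that lie on chromosome 3 with H2ac18 between them, in the order H2ac20, H2bc21, H3c15, H2ac18, H3c14, H4c14 and H3c13. This order names members only. Their 300-base promoter windows (250 bases before to 50 after the start; RefSeq, GRCm38.p6) are shown because they are near copies too. The H3c14 window is chr3:96246435-96246734 on the plus strand and the H3c15 window chr3:96239078-96239377 on the minus strand. The capital marks the only base that differs over the 285 bases the windows have in common, G247T, counted from 1 at the 5′ end of the H3c14 window with the H3c14 base first.
H3c14: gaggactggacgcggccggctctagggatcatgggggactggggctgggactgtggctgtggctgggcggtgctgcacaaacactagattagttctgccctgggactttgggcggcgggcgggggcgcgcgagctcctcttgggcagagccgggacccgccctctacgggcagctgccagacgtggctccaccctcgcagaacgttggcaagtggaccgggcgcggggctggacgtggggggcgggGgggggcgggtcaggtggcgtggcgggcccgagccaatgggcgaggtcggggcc
H3c15: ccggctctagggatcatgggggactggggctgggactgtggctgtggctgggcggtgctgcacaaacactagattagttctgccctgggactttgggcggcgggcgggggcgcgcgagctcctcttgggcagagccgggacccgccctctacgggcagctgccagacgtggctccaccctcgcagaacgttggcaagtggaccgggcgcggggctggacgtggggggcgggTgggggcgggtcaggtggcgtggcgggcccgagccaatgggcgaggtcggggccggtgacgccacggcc
The windows are offset by 15 bases, and 284 of 285 shared bases are identical (99.6%). The transcripts in GENCODE M21 (GRCm38) have the same coding sequence over all 408 bases, and their longest identical run is 666 bases. Cut into windows of 100 bases, 32.9% of the H3c14 transcript sequence and 61.6% of that of H3c15 occurs in another member, which for H3c14 is in every case found in H3c15. A read from this shared stretch fits both copies, and estimated counts can divide such reads between them.

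The reads of this pair were all assigned to a single copy in every library except knockout 4. The copy with most reads differed between the 2 genotypes. For H3c15 the wild-type hearts (2, 4, 5 and 6, always in this order) had 27, 15, 15 and 13 reads, and the knockout hearts (1, 2, 3 and 4) had 0, 0, 0 and 7.90. H3c14 had 0 reads in all 4 wild-type hearts, and 38, 45.56, 37 and 25.10 in the knockouts. Knockout 4 was the only library in which both copies had reads, with 76.1% of the pair's reads on H3c14. In the other 7 libraries the share was 0% or 100%. A count of 0 over the pooled wild-type libraries allows up to 3 counts (0.0673 RPM, which are CPM without the TMM scaling), against 3.23 RPM of H3c14 in the pooled knockouts. That limit covers counting error only and not reads given to H3c15, so no fold is given for H3c14 alone. For H3c15 the fitted log2 difference, knockout minus wild type, was -3.10 (SE 1.03). That value too depends on how shared reads were divided between the copies. Its knockout side rests on the 7.90 reads of knockout 4 alone, and it was -7.21 without that library. In bulk tissue, fewer cells that express a gene and less RNA per cell cannot be told apart, here and in all that follows.

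**Figure D1:**
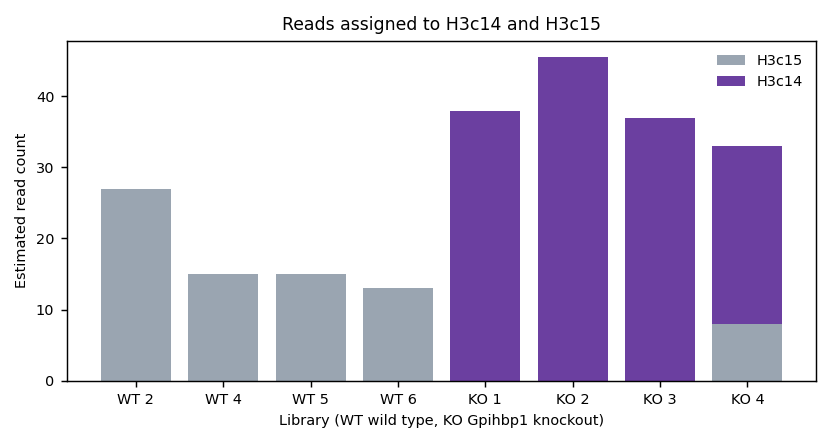
Estimated read counts assigned to H3c14 (purple) and H3c15 (grey), stacked, for each of the 8 libraries. Wild-type libraries hold 13 to 27 reads, all on H3c15, while knockout libraries hold 33 to 45.56 reads, mostly on H3c14.

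The sum over both copies does not depend on how reads were divided between them. Reads divided with H3c13, another H3 gene on chromosome 3, can still affect it. Of the H3c13 transcript windows 77.1% occur in H3c14, and H3c13 had 1.44 reads, all in knockout 2. The pair had 27, 15, 15 and 13 reads in the wild-type hearts and 38, 45.56, 37 and 33 in the knockouts. Scaled, these were 1.88, 1.43, 1.31 and 1.83 CPM against 3.36, 2.99, 3.62 and 3.11 CPM. The groups did not overlap: the lowest knockout lay above the highest wild type. The means were 1.61 ± 0.285 and 3.27 ± 0.281 CPM (SD, n = 4 each), 2.03-fold apart, and the fitted log2 difference was 1.02 (SE 0.30). Without wild-type 2 and knockout 2 it was 1.15. The deposited TPM, which divide by transcript length, summed to 5.42, 4.62, 4.82 and 2.36 in wild-type hearts and to 10.56, 10.62, 10.47 and 9.70 in knockout hearts, again without overlap. The whole difference rests on 70 reads in the wild type and 153.56 in the knockouts.

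Among the 63 members, 11 had enough reads for the fit across all genes, and 52 did not. Of the 11, 1 was called (H3c14, higher in the knockout) by edgeR's quasi-likelihood test at an adjusted p under 0.05, against 0.0312% of the 12826 genes tested (0.0234% called higher and 0.0078% lower). The H3c14 call was lost when any 1 of the 8 libraries was left out, and under RLE or total-count scaling. At an unadjusted p under 0.05 there were 2 members, H3c14 and H3c15, against 0.904% of all genes. The groups did not overlap in the same 2 of 11 tested members, against 0.639% of all genes (0.265% with the knockout higher and 0.374% with it lower). These shares stand beside counts that the choice of the family used. The median log2 difference of the 11 members was -0.021, beside -0.019 over all genes; 5 members were above 0 and 6 below.

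The family's reads came from few genes. The 10 members with a mean of at least 1 CPM held 95.9% to 98.4% of the family's reads in each library, and the other 53 the rest. By histone type, H1 took 46.4% of the reads, H2B 30.6%, H2A 13.9%, H4 7.57% and H3 1.53%. H1f0, the only member on chromosome 15, had 8226 of the family's 24830 reads. Compared per transcript length, in deposited TPM over the 8 libraries, the most abundant member was H2bc4 at 176 ± 31.9 (SD), then H2ac18 at 146 ± 60.1, H4c8 at 114 ± 44.6, H1f2 at 86.9 ± 47.3 and H1f0 at 54.3 ± 16.6. Each neighbouring pair in this order differs by less than the larger of its 2 SDs. A gap followed to H4c9 at 14.3 ± 4.31, H2bc21 at 5.13 ± 1.92, H1f10 at 2.49 ± 1.89 and H2bc6 at 2.01 ± 1.09. The H3 pair has no common level over the genotypes: H3c14 was listed at 0 TPM in wild-type hearts and averaged 9.74 ± 1.62 in knockout hearts, and H3c15 averaged 4.30 ± 1.34 and 0.598 ± 1.195. H3 had the lowest summed TPM of the 5 types in every library, at 5.13 to 24.2. The replacement histone H3 is made outside this name rule by H3f3a and H3f3b, which had 392 ± 114 and 121 ± 57.0 TPM.

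Summed by type, H1 had 124.8, 84.2, 145.9 and 86.0 CPM in wild-type hearts, against 134.9, 138.3, 143.5 and 136.9 in knockout hearts. The 4 knockouts lay close together inside the upper end of the wild-type range (110.2 ± 30.3 against 138.4 ± 3.69 CPM), and the log2 difference was 0.33 (SE 0.24, 95% interval -0.22 to 0.88). H1f0, the replacement linker histone of non-dividing cells, had 91.5, 69.1, 107.8 and 78.6 CPM in wild-type hearts, and knockout hearts had 99.6, 87.2, 91.6 and 94.2, with overlapping groups and a log2 difference of 0.10 (SE 0.21). H1f2 is a replication-dependent linker histone. It had 28.3, 13.4, 36.3 and 4.78 CPM in wild-type hearts, and knockout hearts had 33.3, 47.1, 49.4 and 41.0. Only wild-type 5 reached above the lowest knockout, and the log2 difference was 1.04 (SE 0.51, 95% interval -0.10 to 2.17). Without wild-type 6, the lowest library, it was 0.70. The count ratio of H1f2 to H1f0 within a library, which no scaling changes, ran from 0.0608 to 0.337 in the wild type and from 0.334 to 0.540 in the knockouts. H1f10, another linker histone expressed outside S phase, ranged from 0.565 to 4.11 CPM with overlapping groups, highest in wild-type 2 at 4.11 and knockout 2 at 2.76 CPM, and its log2 difference was -0.73 (SE 0.64). That value rests on these hearts, being -0.18 without wild-type 2 and -1.42 without knockout 2.

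H2A reads came almost wholly from H2ac18, a core H2A gene that sits between the H3 pair. It had 18.04, 51.0, 26.5 and 81.4 CPM in wild-type 2, 4, 5 and 6 and 57.8, 17.3, 34.9 and 37.0 CPM in knockout 1, 2, 3 and 4. The lowest values were those of wild-type 2 and knockout 2, and each genotype spanned over 3-fold. The groups overlapped widely, with a log2 difference of -0.26 (SE 0.50), and the H2A sum gave -0.27 (SE 0.47, 95% interval -1.33 to 0.78). A neighbouring gene, H2ac19, is not a member, as no gene was listed under that symbol. In it occur 88.1% of the 100-base windows of the H2ac18 transcript, so the H2ac18 count can include its reads.

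H4 reads came mostly from H4c8, a core H4 gene on chromosome 13. Its values were 8.84, 22.99, 13.53 and 49.5 CPM in wild-type hearts, and knockout hearts had 25.5, 6.36, 19.2 and 16.9, with overlapping groups and a log2 difference of -0.48 (SE 0.56). H4c9 was low, at 1.88, 1.33, 1.48 and 1.97 CPM against 1.86, 2.17, 2.06 and 2.17 CPM, with overlapping groups. By TPM it averaged 11.3 ± 3.75 in wild-type hearts and 17.3 ± 2.22 in knockout hearts. On that scale the groups did not overlap, with 14.4 the highest wild type and 15.5 the lowest knockout. For the H4 sum the log2 difference was -0.40 (SE 0.48, 95% interval -1.48 to 0.69). Without wild-type 6 the differences of both sums turned positive, to 0.16 for H2A and 0.16 for H4, so the direction of both rests on that library, as does that of H2ac18 (0.19 without it) and H4c8 (0.15).

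H2ac18 and H4c8 lie on different chromosomes, yet their levels moved together from heart to heart. The count ratio of H2ac18 to H4c8 stayed between 1.65 and 2.72 in all 8 libraries (2.11 ± 0.327, SD), while that of H2ac18 to H2bc4 ranged from 0.233 to 0.903 and that of H4c8 to H2bc4 from 0.0945 to 0.466. In both ratios to H2bc4, wild-type 2 and knockout 2 were the lowest libraries. These are count ratios within a library and so do not depend on the scaling. They describe 8 libraries, in each of which both genes share 1 depth and 1 cell makeup. Wild-type 6, with the high erythroid markers and Myl4 given above, had the highest CPM of H2ac18, H4c8 and H2bc4. Wild-type 2 and knockout 2, with high Col1a1, Col3a1 and Postn, had the lowest of H2ac18 and H4c8. The part of cell makeup in these levels was not tested. The order of libraries does depend on the scale: H2ac18 was highest in wild-type 6 by CPM, but by TPM it was highest in knockout 1 (245.4) and wild-type 6 was the fifth (135.4). By TPM, H4c8 was also highest in knockout 1 (177.4, against 130.8 in wild-type 6). H2bc4 was lowest in wild-type 6 by TPM (115.5) and highest in knockout 2 (214.8). Both promoter windows are printed because the genes varied together. That of H2ac18 is chr3:96245247-96245546 on the plus strand and that of H4c8 chr13:23530794-23531093 on the plus strand (RefSeq, GRCm38.p6). Capitals mark the TATA box letters TATAAA and, on either strand, the CCAAT box.
H2ac18: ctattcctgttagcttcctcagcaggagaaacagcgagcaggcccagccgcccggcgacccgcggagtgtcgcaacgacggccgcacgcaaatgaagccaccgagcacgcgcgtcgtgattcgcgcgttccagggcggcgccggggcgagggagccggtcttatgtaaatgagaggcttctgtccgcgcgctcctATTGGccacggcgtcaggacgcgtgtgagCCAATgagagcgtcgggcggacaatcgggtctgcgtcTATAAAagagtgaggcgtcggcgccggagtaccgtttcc
H4c8: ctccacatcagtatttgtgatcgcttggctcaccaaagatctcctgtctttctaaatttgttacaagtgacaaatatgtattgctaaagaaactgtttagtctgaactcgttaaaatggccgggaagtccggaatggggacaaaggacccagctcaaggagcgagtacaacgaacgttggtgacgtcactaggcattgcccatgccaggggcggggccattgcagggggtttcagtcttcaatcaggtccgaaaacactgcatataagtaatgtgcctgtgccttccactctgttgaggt
The H2ac18 window holds 1 TATA box and 2 CCAAT boxes. The H4c8 window holds none of the 3 motifs searched, which were the TATA box (TATAAA), the box CCAAT and the histone octamer (ATTTGCAT), each on both strands. Over the family, 58 of 63 members matched the RefSeq promoter table, with 59 windows. The TATA box was in 52.5% of them against 13.6% of 32851 promoter windows of the same length, the CCAAT box in 81.4% against 37.4%, and the octamer in 16.9% against 1.74%. The H3c14 and H3c15 windows shown above hold 1 CCAAT box each and neither of the other motifs.

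H2B reads came from H2bc4 above all, with H2bc21 and H2bc6 below it. H2bc4, a core H2B gene, had 77.6, 56.5, 51.7 and 106.1 CPM in wild-type hearts, and knockout hearts had 70.8, 67.3, 82.0 and 66.6. H2bc21 had 7.45, 11.1, 13.7 and 7.73 CPM against 10.7, 7.68, 10.2 and 10.9 CPM. H2bc6 had 1.61, 1.62, 1.40 and 3.197 CPM against 2.67, 1.46, 1.48 and 2.36 CPM. In all 3 genes the groups overlapped and the log2 differences were -0.025 (SE 0.26), -0.021 (SE 0.27) and 0.029 (SE 0.41). By TPM, H2bc4 averaged 154.7 ± 29.6 in wild-type hearts and 198.1 ± 15.6 in knockout hearts. On that scale only wild-type 2 (187.0) reached above the lowest knockout (178.9). The H2B sum gave -0.034 (SE 0.24, 95% interval -0.56 to 0.50). Its sign turned under scaling by total counts (0.12) and when wild-type 6 (0.14), knockout 2 (0.0076) or both libraries numbered 2 (0.018) were left out. H2bc23 and H2bc24 had the same value in every library, 4.24, 6.50, 3.50 and 3 reads in wild-type hearts against 3, 3.17, 3.01 and 2.50 in knockout hearts. Their coding sequences are identical over 378 bases, and 94.8% and 86.4% of their transcript windows occur in another member, so these are 1 measurement and not 2. At 28.92 reads each they were too low for the fit, and the genotypes overlapped in reads and in TPM (0.295 ± 0.142 against 0.300 ± 0.209). In CPM the knockouts were lower (0.410 ± 0.150 against 0.251 ± 0.037), but the groups all but touched, at 0.2953 in wild-type 2 and 0.2947 in knockout 3.

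**Figure D2:**
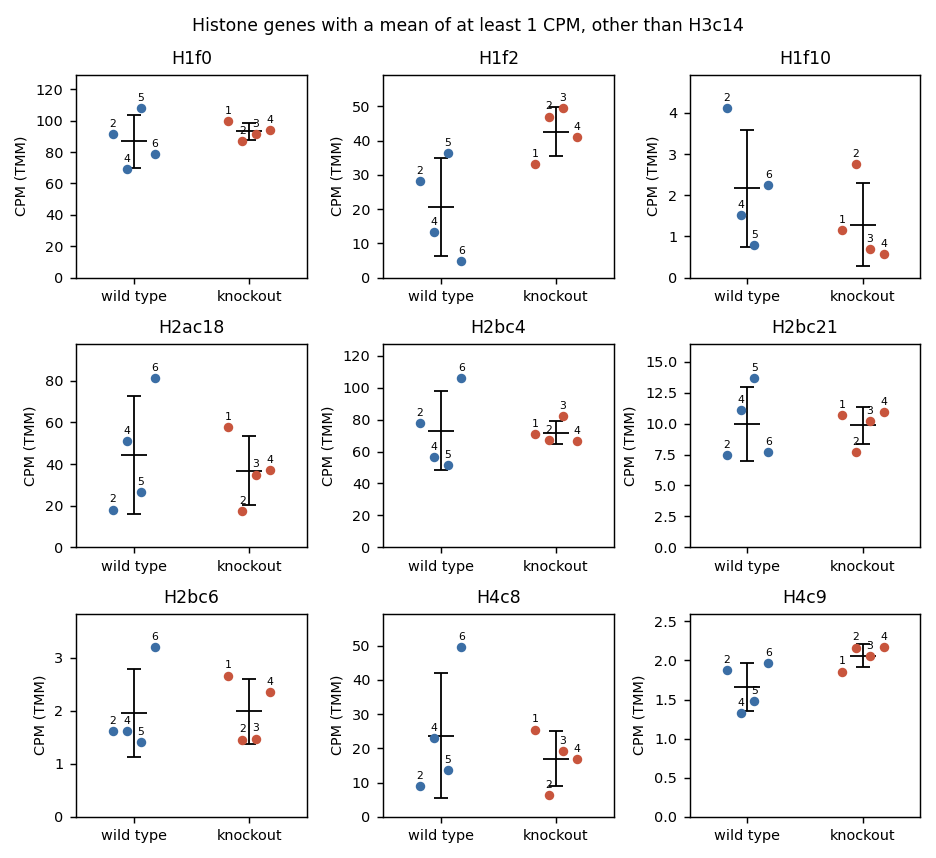
CPM (TMM-scaled) of the 9 members other than H3c14 with a mean of at least 1 CPM, in wild-type (blue) and knockout (red) hearts, 1 point per library with its number, bars showing mean and SD. The genotypes overlap in all 9, and wild-type 6 is the highest point for H2ac18 (81.4), H2bc4 (106.1) and H4c8 (49.5) and the lowest for H1f2 (4.78). By TPM wild-type 6 was the lowest library for H2bc4 (115.5) and not the highest for H2ac18 or H4c8, and the genotypes did not overlap for H4c9.

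H3 reads were few and centred on the pair. All 13 H3 genes together had 60, 25, 25 and 27 reads in wild-type hearts against 57.99, 87.99, 50 and 46 in knockout hearts. In reads the groups overlapped. In CPM they did not (3.13 ± 1.001 against 5.03 ± 0.597), but they nearly touched, at 4.18 in wild-type 2 and 4.33 in knockout 4. The lack of overlap therefore depends on the scaling. The log2 difference was 0.68 (SE 0.32, 95% interval -0.029 to 1.40). Without H3c14 and H3c15 the other 11 H3 genes summed to 33, 10, 10 and 14 reads against 19.99, 42.43, 13 and 13. In CPM these were 1.52 ± 0.719 and 1.76 ± 0.724, and the groups overlapped, with wild-type 2 and knockout 2 highest. The largest of these others were H3c6 with 46 reads over all libraries and H3c4 with 32.72. H3c13, the third H3 copy of the chromosome 3 cluster, had 1.44 reads, all in knockout 2. H3c8 had 0 to 1 read in the wild type and 2 to 3 in the knockouts, which do not overlap but total 12.75 reads.

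**Figure D3:**
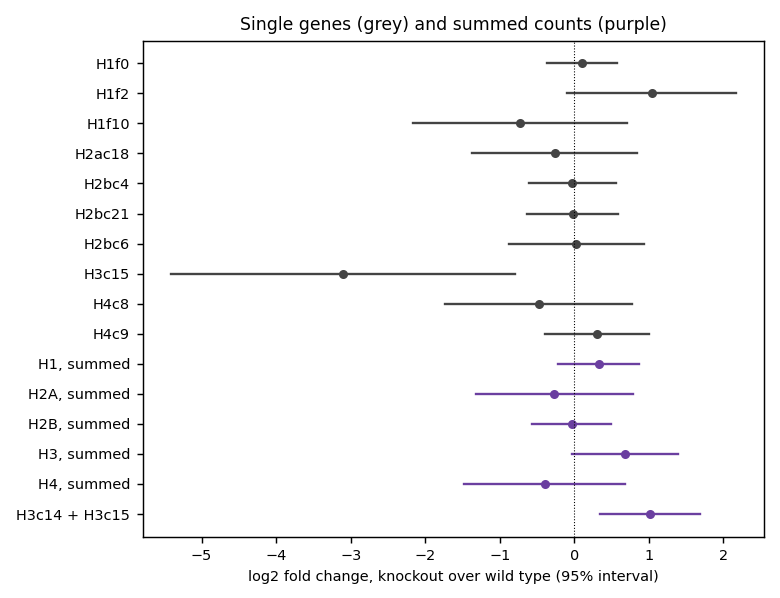
Fitted log2 difference, knockout over wild type, for single members (grey) and for summed counts (purple), with 95% intervals from the quasi-likelihood fit. H3c15 (-3.10) and the summed pair (1.02) lie furthest from 0 with H1f2 (1.04), and H3c14 is left out because it had 0 reads in the wild type. The H3c15 value depends on how reads were divided between the copies, and the summed pair does not. Reads divided with H3c13 can still affect the summed pair.

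The 53 members under 1 CPM, most of them replication-dependent copies, had reads for the most members in 2 hearts, 1 of each genotype. Wild-type 2 and knockout 2 each had reads for 37 of the 53, against 17 to 24 in the other 6 libraries. The most reads of any library were in wild-type 2 for 17 of the 53 and in knockout 2 for 18. These 2 libraries were also the deepest, at 13492971 and 13443538 counts. In the family as a whole 13 members had reads in only 1 library, 6 of them in wild-type 2 alone (such as H2ac11, with 9.72 reads) and 7 in knockout 2 alone (such as H2ac23, with 5). Without H3c15, the low members summed to 8.91, 4.77, 4.39 and 4.21 RPM in wild-type 2, 4, 5 and 6, and to 5.72, 9.50, 5.02 and 3.76 in knockout 1, 2, 3 and 4. The same 2 hearts had the high sums of S-phase genes given above. Mki67, a marker of cycling cells, had 62.3, 3.52, 2.97 and 1.69 CPM in wild-type hearts, and knockout hearts had 2.65, 62.1, 0.979 and 6.03. All 6 fibroblast and all 6 macrophage markers were listed. The macrophage sum was 3172 CPM in wild-type 2 and 2087 in knockout 2 against 345 to 531 elsewhere, while the 8 of 9 lymphoid and thymic markers in the table summed to 1.41 to 7.94 CPM in all libraries. The part of these cell types in the low histone reads was not tested. The H3 pair followed this pattern only in part: it had 2.001, 1.65, 1.31 and 1.24 RPM in wild-type hearts, and 3.67, 3.39, 3.49 and 3.08 in knockout hearts. Wild-type 2 was the highest wild-type heart but lay below every knockout. Knockout 2 had the most reads of the pair (45.56) but not the highest RPM.

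**Figure D4:**
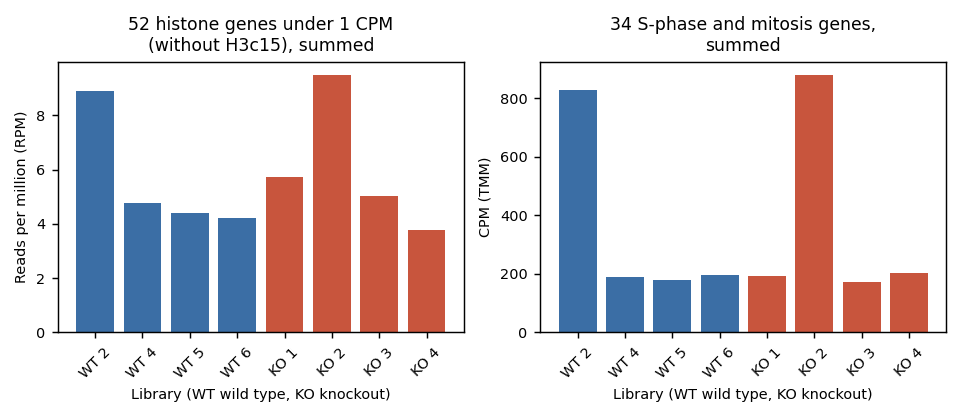
Left, RPM of the 52 members under 1 CPM other than H3c15, summed in each library. Right, CPM of 34 genes of S phase and mitosis, summed. Wild-type 2 (8.91 and 828) and knockout 2 (9.50 and 881) are the highest bars in both panels.

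Shared sequence was common in the family. Of the 63 members 52 had at least 1 transcript window of 100 bases in another member and 11 had none, among them H1f0, H1f10 and H2bc21. The median share was 0% for H1 genes, 64.5% for H2A, 36.4% for H2B, 37.1% for H3 and 18.96% for H4. Of the abundant genes, H1f2 shared 5.07%, H2ac18 8.83%, H2bc4 24.2% and H4c8 38.5%. These shares cover the 63 members only: 88.1% of the H2ac18 windows occur in H2ac19, which is not a member. A count that is not whole is one in which reads were divided between features, and 34 of the 63 members had such a count in at least 1 library (tolerance 0.005 reads). H2bc4 and H4c8 had one in all 8 libraries and H1f0, H1f2 and H2ac18 in none. Whole counts of H2ac18 can still include reads of H2ac19. The single-copy values of H1f0, H1f10 and H2bc21 are therefore the least open to division between members.

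**Figure D5:**
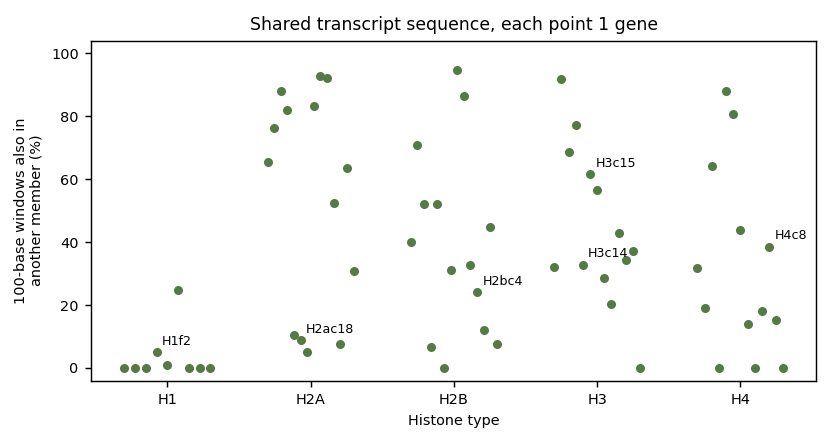
Share of each member's 100-base transcript windows that also occur in another member, by histone type, 1 point per gene (GENCODE M21). H1 genes lie between 0% and 24.7% (H1f4), H3c15 at 61.6%, H4c8 at 38.5%, H3c14 at 32.9%, H2bc4 at 24.2% and H2ac18 at 8.83%. H2ac19, not a member, did not enter these shares and holds 88.1% of the H2ac18 windows.

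The genes that make, process and remove histone mRNA were looked at from lists. None of 23 tested genes of 3′ end processing passed the edgeR threshold in either direction, 0 had an unadjusted p under 0.05 and DESeq2 called 0; 12 were above 0 and 11 below, with a median log2 difference of 0.0089 beside -0.019 for all genes. Slbp, which binds the stem-loop, had 32.2, 14.2, 11.4 and 13.4 CPM in wild-type hearts, and knockout hearts had 14.2, 28.3, 14.9 and 12.9, highest in wild-type 2 and knockout 2. The same held for 11 decay genes, of which 0 passed by edgeR or DESeq2 and 0 had an unadjusted p under 0.05 (4 above 0, 7 below, median -0.12). Upf1, a helicase of this decay, had 66.8 ± 20.3 against 73.9 ± 4.07 CPM. Of 24 tested histone chaperones 0 passed by either tool and 0 had an unadjusted p under 0.05 (13 above 0, 11 below, median 0.022), and of 30 tested S-phase and mitosis genes likewise 0 (18 above 0, 12 below, median 0.020). Pcna, the sliding clamp of DNA replication, had 90.5 CPM in wild-type 2 and 83.8 in knockout 2 against 34.2 to 40.4 elsewhere.

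The replication-independent histone genes outside the name rule had 7 tested members. None passed by edgeR or DESeq2 and 0 had an unadjusted p under 0.05, although all 7 were below 0 (median -0.28). H3f3a had 288 ± 70.5 CPM in wild-type hearts, and knockout hearts had 257 ± 38.3 (log2 difference -0.16, SE 0.27). H2az1, the variant H2A.Z, had 237.9, 60.4, 47.1 and 122.3 CPM against 64.1, 183.0, 64.0 and 60.1 CPM, highest in wild-type 2 and knockout 2. Of 20 small RNAs without a poly(A) tail that were sought as a gauge of carry-over, 0 were in the table used here, so the carry-over was not tested.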

How the data were processed

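Poly(A)-selected, strand-specific RNA libraries of 8 mouse hearts were sequenced as paired ends, per the labels' protocols; 1 paragraph there names rat tissue, while every sample's organism is mouse. HISAT, Bowtie2 and the build GRCm39 are listed in the submitters' processing notes. Which program made the counts is not given in the sources. The authors deposited estimated counts (expected counts), TPM and FPKM per gene and library, per the file headers; 8 empty per-sample columns were not used, and FPKM entered no result. Estimated counts were rounded for the fit, filtered with filterByExpr, scaled by TMM and tested with edgeR 4.0.16 (R 4.3.3, limma 3.58.1; robust quasi-likelihood F-test, no covariates, Benjamini-Hochberg over 12826 genes, threshold 0.05), after a test on simulated data. Sums over members were added before rounding and fitted in place of their members. The standard error is the log2 fold change over the root of F. DESeq2 1.42.0, other scalings, no filter, a replicate block and leaving out libraries were alternatives. Sequence values come from GENCODE M21 and RefSeq, both of another build than the files, matched by gene ID.

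The members and gene lists were chosen with earlier results of these data known. Values per library are given for members with a mean of at least 1 CPM, for those with at least 20 summed reads whose groups did not overlap, and for H3c14 and H3c15; from the other lists, for the 3 with the highest mean or an unadjusted p under 0.05. Slbp, H2az1, Mki67 and the low members named were chosen after their values were seen, as were the count ratios. The floor is 3 counts over a group; it covers counting error only, as PCR copies were not marked by molecular identifiers.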

Additional observations from a re-analysis of the deposited data

Results flagged for a closer look

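Of 42 groups of 4 libraries checked for a single library far from the other 3, 2 had one, where chance gives about 1 in 20. H2bc6 had 3.197 CPM in wild-type 6, against 1.40 to 1.62 CPM in the other wild-type hearts. H3c15 had 0.744 CPM in knockout 4, against 0 in the other knockouts, and this was also the library in which the reads of the pair were divided between both copies. With the other knockouts at 0 any read in 1 heart would have stood out this way, and these are values that the choice of the family used, so nothing is read from it.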

How the results depend on the processing

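The comparison called 4 genes, 1 of them a histone gene. Over all genes DESeq2 called 8, and leaving out 1 library gave 2 to 3 (2 without wild-type 4 or without wild-type 5). The histone count fell to 0 with RLE scaling, with total-count scaling, without wild-type 2 and knockout 2 together, and in each of the 8 fits that left out 1 library (0 to 0); it stayed at 1 with DESeq2 and without the filter. With the replicate number as a block, 168 genes were called and 2 histone genes, H3c14 and H1f2, and of the listed genes H2aj; the pair's log2 difference was 0.88. Only the numbers 2 and 4 are in both groups, and the labels do not say that a number marks a shared litter, batch or day. The deviations of same-numbered libraries correlated over genes at 0.91 for number 2 and 0.11 for number 4. Pairs with different numbers ran from -0.67 (wild-type 2 with knockout 4) to 0.69 (wild-type 4 with knockout 1), with wild-type 5 and knockout 4 at 0.61. The summed pair kept its direction in every setting run (0.93 to 1.11 when 1 library was left out; 0.88 to 1.15 over the rest). It rests on 13 to 45.56 reads per library. No called value turned its sign. Of 154 values of single genes, 20 had the other sign, all of them of H2bc4, H2bc6 or H2bc21 except those of H2ac18 (0.19) and H4c8 (0.15) without wild-type 6. By more than 1 SD between replicates (log2 CPM) 2 of the 154 moved: that of H3c14 with DESeq2, and that of H3c15 without knockout 4 (-7.21). In both fits 1 group is at 0 reads, so the size depends on how the tool treats zeros. Both sizes also depend on how shared reads were divided between the copies, so none is given for H3c14.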
